A study of Bos taurus with 14 samples.

Results

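The genes described here code for 8 proteins of the muscle contractile apparatus: the myosin heavy chains MYH1 and MYH7, the myosin light chain MYL1, the myosin light chain kinase MYLK, the Z-disc proteins MYOZ1, LDB3 and TCAP, and the intermediate filament protein DES (desmin). They were found on the array by gene symbol, either directly or through the RefSeq accession of the probe, and each has 1 probe in 1 spot, so that 8 of 15011 distinct probes are concerned. The genes were picked for their behaviour in liver between day 0 and day 7. Their liver values are therefore given as a description without a test, and tests are given only for their values in neutrophils and for other muscle genes.

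The samples came from Holstein cattle, described as heifers or steers, all of which received a single carotenoid, β-cryptoxanthin, by mouth on day 0 at 0.2 mg per kg body weight. Liver RNA of animals 58, 61 and 66 and RNA of peripheral blood neutrophils of 4 other animals (25, 26, 32 and 34) was hybridised on day 0 and again on day 7, which gives 4 groups on 14 one-colour oligonucleotide arrays. The day 0 samples are the baseline of the same animals. No group of untreated animals was analysed here, and with such a design the carotenoid and everything else that passed in the 7 days cannot be told apart. The sources used here do not say how the liver was taken or how pure the neutrophils were, and neither ages nor the sex of single animals are used.

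Striated muscle contracts when myosin heads in the thick filaments pull on actin filaments that are anchored in the Z-disc, the boundary of the sarcomere. Fast and slow fibres use different genes for the same parts: MYH1 and MYL1 belong to fast fibres, and MYH7 belongs to slow fibres and to the heart. Smooth muscle has no sarcomeres, and there MYLK switches contraction on by phosphorylating the regulatory light chain of myosin. Hepatocytes have no sarcomeres either, while the vessels and the capsule of the liver hold smooth muscle and other contractile cells.

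Because each gene is read by 1 probe, the sequence of that probe defines what was measured. The 3′ parts of the probes (bases 31 to 60 of 60) are shown 5′ to 3′ as the array design gives them, with capitals marking the polyadenylation signal AATAAA where it occurs.
MYH1: ccaaatgctaaaaagtgaccaaagaaatgc
MYL1: tgtataccatgggtcaaagaacatccttaa
MYOZ1: tatggaatttgctctgccttcagtaacagt
MYH7: gagctgcccctttggaagaagcagAATAAA
LDB3: gtacatacaagcatgcttattctgaaataa
TCAP: gtgtacaccatcgagattccctttcacggc
DES: cagcaagccaggcaggtaactggggacata
MYLK: agtcatattacaaagactatttctctaaag

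The hexamer AATAAA, searched on the probe strand over all 60 bases, lies in the probe of MYH7 at its very end, and 11.3% of all probes on the array hold it. No pair of these 8 probes shares an identical run longer than 10 bases. The probes of 7 myosin heavy chain genes on the array (MYH1, MYH3, MYH4, MYH7, MYH8, MYH9 and MYH10), which code for closely related proteins, share runs of at most 8 bases with each other. In the RefSeq gene order MYH1 lies next to MYH2, another fast heavy chain gene, and MYH7 next to the cardiac MYH6. The probes of MYH1, MYH7, MYOZ1 and LDB3 are tied to their genes by an accession, and those of MYL1, TCAP, MYLK and DES only by the symbol in the array's annotation. The TCAP probe rests on an expressed sequence tag, and its assignment was not checked against a transcript sequence. In the RefSeq order TCAP lies between STARD3 and PNMT. The probe may read the neighbour STARD3 rather than TCAP, which was not tested, so the values below are those of the probe and not certainly of telethonin.

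Levels are the processed signal of a probe as a percentage of the 75th percentile of all signals on the same array. A probe counts as detected when the scanner software marked it as well above background. Signals differ in efficiency between probes, so a level is compared only with the same probe on other arrays. Between 62.7% and 76.7% of spots were well above background on the liver arrays, with the lowest share on the day 7 array of animal 58, and between 57.1% and 71.6% on the neutrophil arrays. The tissue labels were checked against marker genes. All 11 hepatocyte markers on the array were detected on every liver array, with a summed level of 64640% to 85084% on day 0 and 78004% to 102240% on day 7. All 9 neutrophil markers were detected on every neutrophil array. The liver arrays shared 1 slide and the neutrophil arrays another, and each slide carried its day 0 arrays in one row and its day 7 arrays in the other. Day and array row cannot be told apart in this layout, nor can tissue, slide and animals.

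MYH1, the heavy chain of fast type IIx fibres, was not detected in liver on day 0 and was detected in all 3 livers on day 7. On day 0 the signals of animals 58, 61 and 66 were 0.442%, 0.210% and 0.228%, all below the background criterion. On day 7 they were 40.5%, 4.23% and 1.82%. The days did not overlap, and animal 58 stood far above the other two on day 7. Since day 0 gives no level, the mean change of 4.62 ± 1.78 (log2, SD, n = 3) rests on signals near zero, and the bound is a level at least 6.84-fold higher. In single animals the bound was 42.6-fold in animal 58, 4.10-fold in animal 61 and 1.83-fold in animal 66. The 2919 probes that were above background on no liver array give a scale for such signals, with a median day 7 minus day 0 difference of 2.14 in animal 58, 0.15 in animal 61 and 0.50 in animal 66 (log2). The bounds of MYH1 hold for the processed signal. With another background correction and normalization (normexp with quantile normalization) its mean change was 1.15, under the bound of 2.77 (log2).

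MYL1, the alkali light chain of fast myosin, had a large difference that also rests on an undetected day 0 signal. Its day 0 signals of 0.717%, 0.295% and 0.324% (animals 58, 61 and 66) were all below the background criterion. The day 7 levels were 59.6%, 103% and 38.5%. Every day 7 value lay far above every day 0 value, and unlike MYH1 the 3 animals were within 2.68-fold of each other on day 7. The mean change was 7.24 ± 1.08 (log2, SD, n = 3), and the bound was at least 62.3-fold higher, or 62.8-, 99.7- and 38.7-fold in the 3 animals. These bounds too hold for the processed signal. With normexp and quantile normalization the mean change was 3.12, under the bound of 5.96 (log2). With quantile normalization of the processed signal it was 6.67.

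MYOZ1 (myozenin 1 or calsarcin 2), which ties calcineurin to the Z-disc of fast fibres, already had a level in liver on day 0. It measured 45.6%, 35.4% and 20.7% in animals 58, 61 and 66 on day 0 and 71.8%, 81.1% and 28.4% on day 7. Each animal was higher on day 7, by 1.57-, 2.29- and 1.37-fold, but the day 7 level of animal 66 lay below the day 0 levels of the other 2 animals, so that the days overlapped. The mean change was 0.77 ± 0.38 (log2, SD, n = 3).

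MYH7, the heavy chain of slow fibres, was detected in liver on both days. Its day 0 levels were 3.21%, 3.91% and 1.82% in animals 58, 61 and 66, and its day 7 levels 44.2%, 353% and 65.8%. The days did not overlap, and the highest day 7 level was that of animal 61. The differences were 13.8-, 90.3- and 36.2-fold, which gives a mean change of 5.15 ± 1.36 (log2, SD, n = 3) or 35.6-fold. MYL1 differed more than MYH7 here and with quantile normalization of the processed signal (6.67 against 5.23, log2). With normexp, which also changes the background correction, and quantile normalization the order turned, with 3.46 for MYH7 and 3.12 for MYL1. The difference of MYH7 is the one large difference among the 8 genes that does not rest on an undetected day 0 signal. Its day 0 levels were still low. The lowest signal of any detected probe on those arrays was 0.950%, 1.03% and 0.994% in animals 58, 61 and 66.

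LDB3 (ZASP or cypher), a PDZ and LIM domain protein that binds α-actinin in the Z-disc of striated muscle, was modestly higher. The levels were 15.1%, 16.8% and 12.02% on day 0 and 19.3%, 36.7% and 23.1% on day 7. The days did not overlap, with animal 61 highest on both, and the mean change was 0.81 ± 0.41 (log2, SD, n = 3) or 1.75-fold.

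The TCAP probe, whose assignment is uncertain as said above, did not share this pattern. TCAP, or telethonin, caps the end of titin at the Z-disc. Its probe gave 6.45%, 8.16% and 9.45% on day 0 and 6.03%, 7.75% and 8.71% on day 7. All 3 animals were slightly lower on day 7, the days overlapped, and the mean change of -0.097 ± 0.022 (log2, SD, n = 3) was close to the median of -0.036 over all probes tested in liver.

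DES, the intermediate filament protein that links Z-discs in striated muscle and dense bodies in smooth muscle and is also known from hepatic stellate cells, varied more between animals than between days. It measured 21.9%, 67.5% and 26.6% on day 0 and 31.6%, 56.6% and 52.1% on day 7. It was higher in animals 58 and 66 and lower in animal 61 on day 7, the days overlapped, and the mean change was 0.41 ± 0.62 (log2, SD, n = 3).

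MYLK, the kinase of smooth muscle and nonmuscle myosin, was strongly detected in liver before treatment. It measured 1096%, 1450% and 1025% on day 0 and 1324%, 1863% and 1709% on day 7. All 3 animals were higher on day 7 by 1.21- to 1.67-fold, and the days overlapped. The mean change of 0.46 ± 0.25 (log2, SD, n = 3) depended on the position of the probe. The MYLK probe lies in spot row 19 of 192, and with the trend of signal along the spot rows removed from each array its change was -0.058. The other 7 probes lie in rows 75 to 139, where that correction left every one of them with the same direction.

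**Figure D1:**
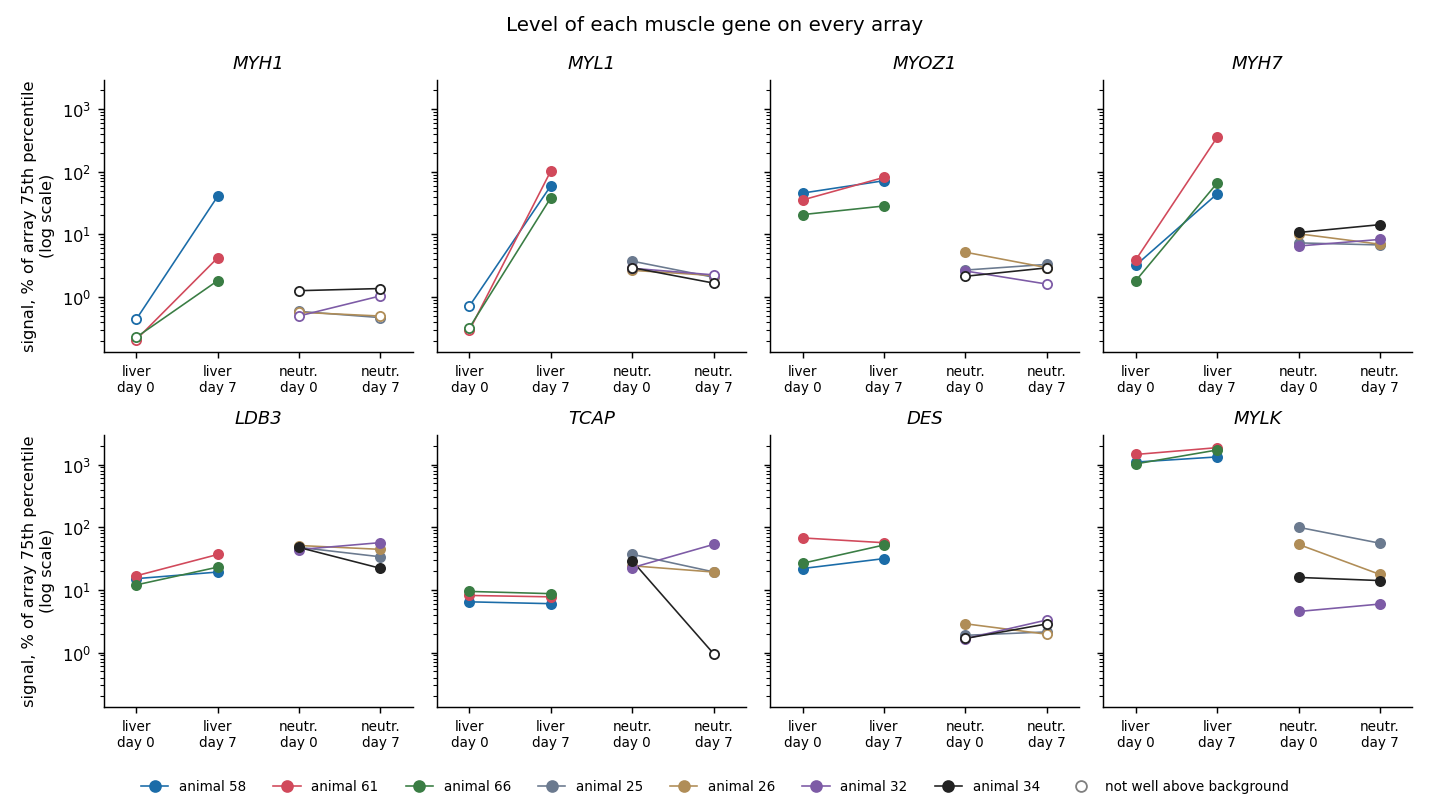
Levels of the 8 genes on all 14 arrays, as processed signal in percent of the array's 75th percentile on a log axis, with lines joining day 0 and day 7 of 1 animal; open circles are not well above background. MYH1 and MYL1 are open in liver on day 0 and filled on day 7, MYH7 runs from 1.82% to 3.91% up to 44.2% to 353%, and the other genes move little by comparison.

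**Figure D2:**
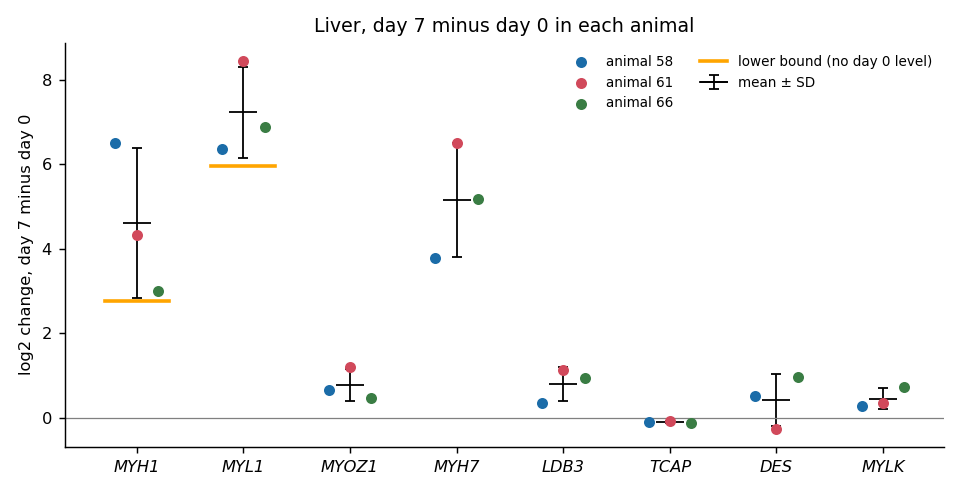
Day 7 minus day 0 in liver (log2) for each gene, with 1 point per animal, the mean and SD over the 3 animals, and an orange line at the lower bound for genes undetected on day 0. MYL1, MYH7 and MYH1 lie between 2.998 and 8.45 in single animals, and the other 5 genes between -0.25 and 1.20.

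Counted together, 6 of the 8 genes were higher on day 7 in all 3 livers (MYH1, MYL1, MYOZ1, MYH7, LDB3 and MYLK), TCAP was lower in all 3, and DES was mixed. For 4 genes (MYH1, MYL1, MYH7 and LDB3) all day 7 levels lay above all day 0 levels, which was so for 7.33% of the 10928 probes tested in liver, while 8.03% had all day 7 levels below. The genes were picked on this contrast, so nothing is read from that count. The median change over the 6 striated genes (without DES and MYLK) was 2.71, or 1.79 with MYH1 and MYL1 set to their bounds, and by animal it was 2.22, 2.76 and 1.97 in animals 58, 61 and 66. It fell to 0.91 with another background correction and normalization (normexp with quantile normalization). It was 2.33 with quantile normalization of the processed signal and 2.69 with the row trend removed. Over the 4 striated genes detected on every liver array, which leave out MYH1 and MYL1, it was 0.79. Without the TCAP probe it was 4.62, or 2.77 with bounds, over 5 genes.

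The fast and slow heavy chains ranked the 3 day 7 livers in different orders. MYH1 was 9.58-fold higher in animal 58 than in animal 61, and MYH7 was 7.98-fold higher in animal 61 than in animal 58. With 3 animals and 1 sample of each per day this is a description of these livers, with no test. The difference for MYH1 (3.26, log2, animal 58 minus 61) was 2.07 to 3.35 under other normalizations and with the row trend removed, and that for MYH7 (-2.996) was -3.26 to -2.99, both looked at after the values were seen. MYL1 and MYOZ1, which also belong to fast fibres, did not follow MYH1 exactly: both were highest in animal 61 and lowest in animal 66. Over 8 fast genes (MYH1, MYL1, MYOZ1, TNNC2, TNNT3, ATP2A1, MYLK2 and ACTN3) the lowest day 7 level was in animal 66 for 7 and in animal 61 for ACTN3, and the highest was in animal 58 for 4 and in animal 61 for 4. Some of these orders rest on small differences: ATP2A1 had 9.19% and 9.08% in animals 58 and 61, and ACTN3 12.6% to 13.8%. Others were there on day 0. MYLK2 then measured 675%, 428% and 379% in animals 58, 61 and 66, its day 7 order. MYOZ1 was lowest in animal 66 on day 0 too. Over 7 slow genes (MYH7, TNNC1, TNNT1, MYOZ2, CSRP3, CASQ2 and TPM3) the highest was in animal 61 for 6 and in animal 66 for TPM3. The lowest was in animal 58 for 5 and in animal 66 for 2. TPM3 had its day 7 order on day 0 already (751%, 918% and 952% in animals 58, 61 and 66). Among the slow genes MYOZ2, TNNT1 and CSRP3 were detected in 2 of the 3 day 7 livers and CASQ2 in 1, so that the order of their lower values is not measured.

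**Figure D3:**
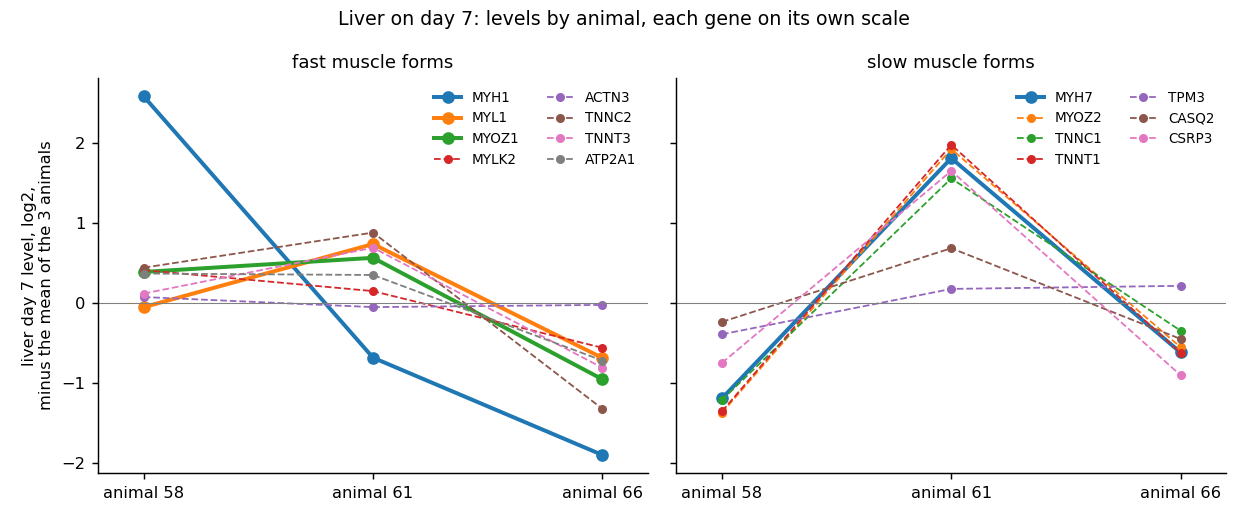
Day 7 liver levels (log2) of fast muscle genes on the left and slow muscle genes on the right, each gene centred on its mean over the 3 animals, with MYH1, MYL1, MYOZ1 and MYH7 in thick lines and other genes dashed; MYOZ2, TNNT1, CSRP3 and CASQ2 include values below the background criterion. MYH1 peaks in animal 58, and MYH7 and 5 other slow genes peak in animal 61.

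Other probes that the array describes as the same or similar proteins gave a mixed picture. A probe that the array describes as similar to myosin light chain 2 was undetected on day 0 (0.322%, 0.210% and 0.284%) and measured 16.01%, 286% and 50.1% on day 7. Its order of animals (61, 66, 58) was that of MYH7. A probe described as a fast skeletal myosin light chain 2, but named MRLC2 on the array, measured 1.52% to 2.23% on day 0 and 1.37% to 1.88% on day 7, with overlapping days. Its day 0 level in neutrophils was 8.17% to 11.2%, and its assignment was not checked. A sequence tag described as similar to a fast heavy chain was detected in all 3 livers on day 0. It gave 3.07%, 2.31% and 2.30% in animals 58, 61 and 66 on day 0 and 3.46%, 0.232% and 1.45% on day 7. On day 7 it was detected in animal 66 only. The day 7 signal of animal 58 exceeded its day 0 level. It lay under the lowest signal of any detected probe on that array (4.18%). A tag similar to desmin measured 14.4% to 22.3% on day 0 and 16.7% to 18.1% on day 7. None of these probes has a RefSeq gene name, and all were looked at after the values of the 8 genes were seen.

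Further sarcomere genes were tested in the liver with limma (animal as block, Benjamini-Hochberg over all 10928 probes tested), of which 3.99% passed an adjusted p of 0.05, 2.67% higher and 1.32% lower on day 7. An unadjusted p under 0.05 was found for 17.9% of these probes, against which the unadjusted counts below are to be read. Of 61 sarcomere genes on 4 lists, 30 are on the array and 14 could be tested, and of these 4 rose, none fell and 11 had a positive change. The lists were drawn up with earlier results of these data known and are not independent evidence of a direction. Their median change was 0.49, against -0.036 over all probes. The 4 genes that rose were TNNC2 (troponin C of fast fibres, at least 49.9-fold, adjusted p = 0.00786), TNNC1 (troponin C of slow fibres and heart, 7.04, log2, adjusted p = 0.0124), TNNT3 (troponin T of fast fibres, 4.72, adjusted p = 0.00928) and ATP2A1 (the calcium pump of fast fibres, 1.93, adjusted p = 0.0358). TNNC1 and TNNT3 were each detected on 1 of 3 day 0 arrays, so that their changes rest on mostly undetected baselines. TNNC2, TNNC1 and TNNT3 entered the test only because all 3 day 7 arrays detected them. A gene is tested when detected on every array of at least 1 day, so for these genes a rise was favoured in advance. With normexp and quantile normalization the changes were smaller, at 3.15 for TNNC2, under its bound of 5.64, 4.11 for TNNC1, 1.30 for TNNT3 and 0.58 for ATP2A1, which then did not pass (adjusted p = 0.0819). With the row trend removed ATP2A1, in spot row 190, had 2.59 (adjusted p = 0.0580), and the other 3 passed. Without animal 58 none of the 18 then testable genes passed (11 at an unadjusted p under 0.05), and neither did any other of the 11136 liver probes tested. The changes of TNNC2, TNNC1, TNNT3 and ATP2A1 were then 7.69, 7.68, 4.31 and 1.78. With the outer 40 spot rows at either edge left out none of 7 passed (4 at an unadjusted p under 0.05), and neither did any other probe of those rows.

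Split by type, 3 of 5 tested fast genes rose, and MYLK2, the skeletal muscle light chain kinase, had 0.29 (adjusted p = 0.384) and ACTN3, the α-actinin of fast fibres, 0.52 (adjusted p = 0.0784). Of the slow genes 2 could be tested. TNNC1 rose, and TPM3, a tropomyosin also made outside muscle, had -0.095 (adjusted p = 0.723). TNNT1, CSRP3 and MYOZ2, slow fibre genes for a troponin T, a muscle LIM protein and a myozenin, were detected on no day 0 array and on 2 of 3 day 7 arrays, with bounds of at least 9.38-, 3.30- and 2.21-fold, and were not tested. Of 13 further Z-disc and M-band genes on the array 5 were tested and none passed (2 at an unadjusted p under 0.05). Among them were ACTN2, the main α-actinin of the Z-disc (1.96, adjusted p = 0.110), CRYAB, a small heat shock protein bound to desmin (1.23, adjusted p = 0.134), PDLIM3 (-0.12, adjusted p = 0.733) and FHL3 (0.077, adjusted p = 0.739). The giant proteins titin (TTN) and nebulin (NEB) were detected on 0 and 1 of the 6 liver arrays.

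None of the other myosin genes tested passed. MYH4, the heavy chain of fast type IIb fibres, was detected on no liver array. The perinatal MYH8 was detected in 1 liver on day 7, and the embryonic MYH3 had 0.46 (adjusted p = 0.340) and the atrial and embryonic light chain MYL4 -0.029 (adjusted p = 0.961). None of the 3 tested genes of nonmuscle myosin II passed (2 at an unadjusted p under 0.05), with -0.64 for MYH9 (adjusted p = 0.0981), -0.34 for MYH10 (adjusted p = 0.247) and -0.12 for the light chain MYL6 (adjusted p = 0.726). MYL6B, an alkali light chain on that list that is also known from slow muscle, was named after its values were seen. It measured 0.588%, 1.37% and 0.540% on day 0 and 1.95%, 36.5% and 3.39% on day 7, was detected on 1 and 2 of 3 arrays and was not tested.

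None of the smooth muscle genes, the companions of MYLK, passed. Of 9 on the array 6 were tested (2 had an unadjusted p under 0.05), with a median of -0.019. ACTA2, the actin of smooth muscle and activated stellate cells, had -0.90 (adjusted p = 0.217), smoothelin (SMTN) -0.60 (adjusted p = 0.222) and caldesmon (CALD1) 0.059 (adjusted p = 0.820). Calponin (CNN1) and the enteric actin ACTG2, named after their values were seen, changed in different directions in different animals. CNN1 measured 21.6%, 398% and 13.2% on day 0 and 54.2%, 14.2% and 180% on day 7, and ACTG2 8.60%, 129% and 14.4% and then 18.6%, 10.6% and 76.0%, so that animal 61 was highest on day 0, as for DES, and animal 66 on day 7. The summed level of the 9 genes ranged from 243% to 957% on day 0 and from 268% to 463% on day 7. The difference between the striated and the smooth lists itself was not tested.

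**Figure D4:**
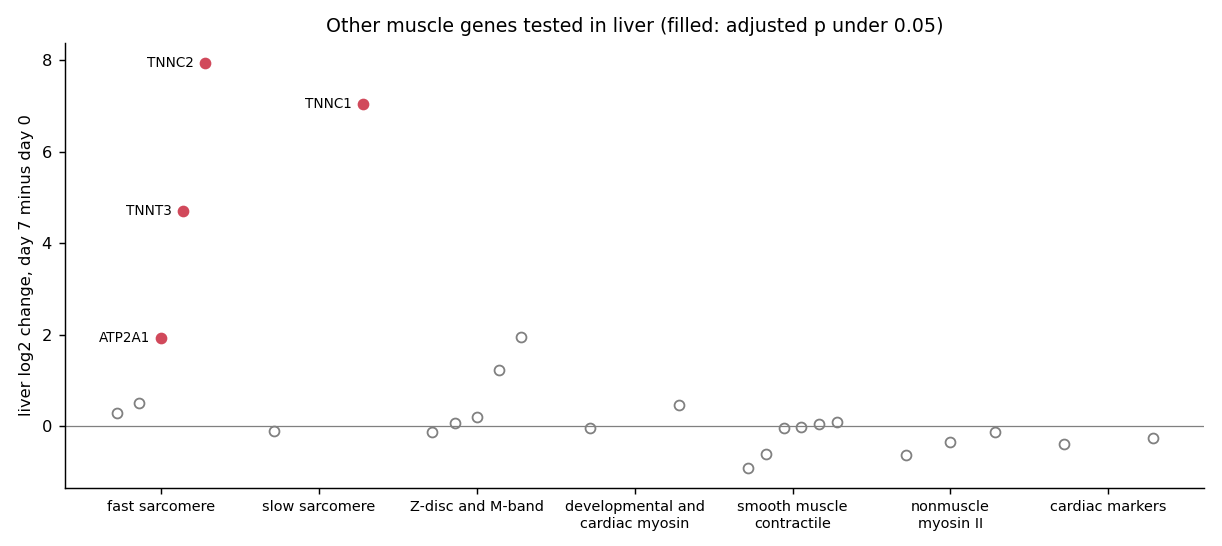
Liver change from day 0 to day 7 (log2, from limma) of each tested gene of 7 muscle lists that is not among the 8 genes, with filled points past an adjusted p of 0.05. The 4 filled points lie in the fast and slow sarcomere lists, between 1.93 and 7.94 (TNNC2, which has no day 0 level), and the smooth muscle, nonmuscle and cardiac lists lie between -0.90 and 0.099.

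Markers of whole cell types were summed over the same arrays. Of 21 further skeletal muscle markers on the array 16 were tested, 7 rose (ACTA1, CKM, MB, SLN, MYOD1, TPM1 and ENO3) and none fell. The other 9 did not pass, among them the mitochondrial subunit COX7A1 (0.011, adjusted p = 0.976), the mitochondrial creatine kinase CKMT2 (0.26, adjusted p = 0.625), the muscle glycogen phosphorylase PYGM (0.43, adjusted p = 0.204) and the myogenic factor MYOG (-0.056, adjusted p = 0.908). Of the 7 that rose, CKM, MB and SLN were detected on no day 0 liver array and ACTA1 on 2 of 3. These genes entered the test only through day 7, so that a rise was favoured in advance. The bounds were at least 16.6-fold for CKM, 32.4-fold for MB and 7.84-fold for SLN (4.05, 5.02 and 2.97, log2). With normexp and quantile normalization CKM (1.82), MB (2.38) and SLN (0.98) lay under these bounds. Over all 21 the summed level went from 133% to 198% before the dose to 449% to 1470% on day 7. Such a sum weighs bright probes most. In it ACTA1 went from 1.01%, 7.88% and 0.310% to 193%, 800% and 196% (animals 58, 61 and 66). MYOD1 went from 46.7%, 39.6% and 12.3% to 395%, 283% and 31.2%. On day 0 8 of the 21 were detected on no liver array and on day 7 4 were, among them the myogenic factor MYF5 and the growth regulator MSTN. The muscle regulator MYOD1, which rose by 2.42, lies near the edge, in spot row 3, and removing the row trend left 1.45 (adjusted p = 0.167). With that trend removed ACTA1, CKM and MB passed and SLN, MYOD1, TPM1 and ENO3 did not. MB also lost its call with normexp and quantile normalization (2.38, adjusted p = 0.0873), as MYOD1 did (2.34, adjusted p = 0.0647), and MYOD1 and ENO3 lost theirs without the block (adjusted p = 0.507 and 0.242). None of the 7 passed without animal 58, and neither did any other liver probe. The 7 cardiac markers on the array summed to between 37.0% and 49.7% on day 0 and between 33.8% and 39.4% on day 7, and NPPA, TNNT2, RYR2 and NKX2-5 were detected on no liver array. The summed level of the skeletal muscle markers was higher on day 7 in all 3 livers, as were MYH1, MYL1 and MYH7, while 9 of the 16 tested markers did not pass. Their part in the result was not tested. Markers of other cells were read on the same liver arrays. None passed among 4 adipocyte, 9 fibroblast and stellate, 4 cholangiocyte, 6 macrophage, 2 B cell, 4 red cell and platelet and 4 intermediate filament genes tested, nor at an unadjusted p under 0.05. Of 5 T cell markers none passed and 2 had such an unadjusted p, and of 6 neutrophil markers none passed and 4 had one. Over all probes tested in liver 17.9% had one. The neutrophil markers included lactoferrin (LTF), with -2.11 (adjusted p = 0.109). Of 11 hepatocyte markers FGB rose (1.05, adjusted p = 0.0326) and of 7 endothelial markers ENG (0.88, adjusted p = 0.0350), from spot rows 19 and 3. The day 0 library of animal 61 stood apart from the other 2: its summed level was 2769% for the fibroblast and stellate list (1542% and 1436% in animals 58 and 66), 957% for the smooth muscle list (325% and 243%) and 1076% for the neutrophil list (420% and 444%). Its summed level for the skeletal muscle list was 192%, between those of the other 2. Without animal 61 the liver changes were 4.76 for MYH1, 6.63 for MYL1 and 4.48 for MYH7. In RNA of bulk tissue more cells of a type and more RNA per cell cannot be told apart.

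In neutrophils, whose values played no part in the choice of the genes, 4 of the 8 could be tested and none of these passed. The filter on dim probes (detected on every array of at least 1 day) was passed by MYH7, LDB3, TCAP and MYLK. In limma none of these 4 had an unadjusted p under 0.05, and 0% of all 9447 probes tested passed (13.4% had an unadjusted p under 0.05). MYH7 measured 7.31%, 10.2%, 6.51% and 10.7% on day 0 in animals 25, 26, 32 and 34 and 6.78%, 6.96%, 8.30% and 14.3% on day 7. It was higher in 2 animals and lower in 2, with a change of 0.025 ± 0.27 (log2, SE, n = 4, limma adjusted p = 0.972). Every neutrophil level of MYH7 lay above every day 0 liver level (1.82% to 3.91%) and below every day 7 liver level (44.2% to 353%).

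LDB3 had a higher signal in every day 0 neutrophil sample than in any day 0 liver sample. It measured 47.8%, 51.1%, 44.04% and 47.6% on day 0 and 33.7%, 44.4%, 56.8% and 22.1% on day 7 (change -0.36 ± 0.30, SE, n = 4, limma adjusted p = 0.589). The TCAP probe was also brighter than in liver on day 0, at 37.0%, 24.3%, 22.6% and 29.1%. On day 7 it measured 19.4%, 19.3% and 53.2% in animals 25, 26 and 32 and was undetected in animal 34 (0.959%), whose day 7 array had the lowest share of detected spots. The change was -1.24 ± 0.88 (SE, n = 4, limma adjusted p = 0.529). MYLK measured 99.9%, 53.3%, 4.52% and 15.8% on day 0 and 55.6%, 17.7%, 5.95% and 14.1% on day 7. Animals differed more than days, every value was below those of liver, and the change was -0.55 ± 0.36 (SE, n = 4, limma adjusted p = 0.497).

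The other 4 genes were at or near the detection limit in neutrophils and were not tested. MYH1 was detected on none of the 8 arrays, with signals of 0.469% to 1.37%. MYL1 measured 3.74%, 2.66%, 2.88% and 2.94% on day 0 (detected in animals 25, 26 and 32) and 2.07%, 2.203%, 2.26% and 1.67% on day 7 (detected in animal 25). Each of these signals lay above the undetected day 0 liver signals of MYL1 (0.295% to 0.717%). All its day 7 values lay below all its day 0 values, which was so for 4.52% of probes tested in neutrophils (4.89% had all day 7 values above), and the mean difference was -0.57 ± 0.30 (log2, SD, n = 4). MYOZ1 ranged from 1.61% to 5.19% and DES from 1.67% to 3.31% over the 8 arrays, and the days overlapped for both. Of the other sarcomere genes 12 were tested in neutrophils and none passed (2 at an unadjusted p under 0.05), with a median of -0.26 against -0.066 over all probes.

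**Figure D5:**
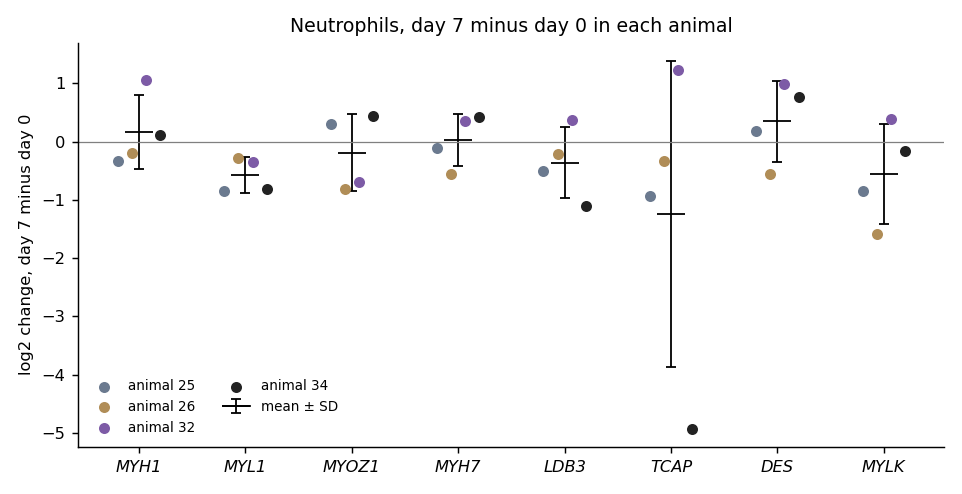
Day 7 minus day 0 in neutrophils (log2) for each gene, with 1 point per animal and the mean and SD over the 4 animals; MYH1 was detected on no array, and MYL1, MYOZ1 and DES on some. The changes scatter around zero, apart from MYL1, which is below zero in all 4 animals, and TCAP in animal 34, where the day 7 signal was undetected.

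The genes whose profile over the 6 liver arrays was most like the mean log2 level of the 6 striated genes were sought among 370 probes whose levels spanned at least 2 on the log2 scale. These are correlations over arrays that share the same split by day, so they describe the libraries alone. TNNC2 came first (Pearson r = 0.991), followed by GHITM, LAS1L, MSX2, DIAPH2, CDC7, CPA1, COX17, PTPA and YJU2B (r = 0.990 to 0.983). The latter 9 genes are not muscle genes by name, and their probes all lie in spot rows 1 to 5, at the edge of the array. Restricted to the 175 such probes outside the outer 40 spot rows at either edge, a choice made after seeing this, the closest were TNNC1 (r = 0.968), TNNT3 (0.956), ACTA1 (0.941), SLN (0.940), COX6A2 (0.906) and ACTN2 (0.848), all of which are muscle genes. The next was UBE2T at 0.676.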

How the data were processed

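RNA of liver (3 animals) and blood neutrophils (4 animals) on days 0 and 7 was amplified from 200 ng, labelled with Cy3 and hybridised to 14 arrays, per the labels. The spot intensities used are the deposited processed signals, which Agilent Feature Extraction had already corrected for background, per the file headers. They name its version as 9.5.1.1, the submitters' processing notes as 9.5. The mean and background intensities, used for 1 alternative, are raw pixel values per the file headers. The authors' deposited log2 values equal log2 of the processed signal less 1 constant for each array, 0.004 to 0.013 away from its 75th percentile (r = 1, column medians -3.55 to -2.69). The well-above-background, outlier and saturation flags and spot positions are other columns of the deposited files, per the file headers. Coordinates are not used, and no genome build is named in the sources at hand.

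Spots flagged as controls or outliers (0 to 18 outliers per array) were dropped, while 0 to 3 saturated ones stayed in. Each level is the log2 processed signal relative to the 75th percentile of its array. Of 15011 probes 7055 had 1 gene symbol, 3 several and 7953 none, through an NCBI RefSeq table of ARS-UCD2.0 used for names and gene order. Of several probes of a list gene the one with the highest liver mean was used. A bound for a gene undetected on 1 day sets each dim array at the higher of its own signal and the lowest signal of any detected probe. Such a bound holds for the processed signal and not for other background corrections. Normexp with its offset of 50 shrinks the changes of dim probes by construction, so it cannot test a bound.

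Within each tissue, limma 3.58.1 in R 4.3.3 fitted the days (lmFit, then eBayes, two-sided, Benjamini-Hochberg over all probes tested, threshold 0.05) with animal as a block, on probes detected on every array of at least 1 day. The code was tested on simulated data. The labels pair the samples by naming 1 animal on both days. Deviations of paired samples from their group means correlated with r between 0.32 and 0.65 in the 3 livers and between 0.030 and 0.61 in the 4 neutrophil pairs.

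The 8 genes and all lists were chosen with earlier results of these data known. Named are the 8 genes with every probe, up to 6 list genes past the threshold and up to 3 others of highest liver signal per list, and the 10 genes most like the striated profile. Genes outside this rule (TNNT1, CSRP3, MYOZ2, CASQ2, TTN, NEB, MYH4, MYH8, ENO3, MYOG, CNN1, ACTG2, MYL6B, ACTN2, COX6A2, UBE2T, MYF5, MSTN, NPPA, TNNT2, RYR2 and NKX2-5) were chosen after their values were seen. Alternatives were no block, normexp (offset 50) followed by quantile normalization, processed signals with quantile normalization, the authors' deposited table, no filter or a strict filter on dim probes, a lowess trend along spot rows removed (span 0.3), the outer 40 spot rows at either edge left out and each animal left out. The number of arrays and, for dim probes, the background limit the precision. Other lists (adipocyte, fibroblast and stellate, endothelial, cholangiocyte, macrophage, T cell, B cell, red cell and platelet, intermediate filament) describe other cells in the same RNA.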

Additional observations from a re-analysis of the deposited data

Results flagged for a closer look

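MYL1, the fast alkali light chain, moved one way in every liver and the other way in every neutrophil sample. It was higher on day 7 in 3 of 3 livers (7.24 ± 1.08, log2, SD) and lower in 4 of 4 neutrophil samples (-0.57 ± 0.30, log2, SD), which differ by 7.81 as fitted. This is not a measured difference: the probe was detected on no day 0 liver array and on 1 of 4 day 7 neutrophil arrays. The liver side is a bound of at least 5.96 for the processed signal, and the liver change was 3.12 with normexp and quantile normalization. The difference was not tested, and the tissues came from different animals on different slides. Of 24 sets of 4 neutrophil values of the 8 genes, none had an animal past the 0.829 criterion for a value far from the others.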

How the results depend on the processing

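With animal as the paired block 436 liver probes passed, and without the block 212 did. The count was 0 without a filter on dim probes, 31 with the row trend removed and 0 of 6469 without the outer 40 spot rows at either edge (631 at an unadjusted p under 0.05), and 0 to 164 with 1 animal left out, 0 being without animal 58. Neutrophil probes passed in no setting. The count of other sarcomere genes called, 4 of 14, was 0 of 30 without the filter, 2 of 8 among probes detected on every array (ATP2A1 and ACTN3, since TNNC2, TNNC1 and TNNT3 are not among those probes), 0 of 7 without those outer rows, and 0 to 4 with 1 animal left out. Over its alternatives the adjusted p of TNNC2 was 0.00527 to 0.111, of TNNT3 0.00733 to 0.109, of TNNC1 0.00755 to 0.123 and of ATP2A1 0.0168 to 0.226. The striated median of 2.71 was 0.91 with normexp and quantile normalization, and 2.33 with quantile normalization of the processed signal. It was 0.79 with genes detected on every array (4 genes), 4.62 without the TCAP probe and 2.35 to 3.03 with 1 animal left out. With normexp the liver changes of MYH1, MYL1 and MYH7 were 1.15, 3.12 and 3.46. The values of MYH1 and MYL1 lay under their bounds of 2.77 and 5.96. The direction of MYLK in liver turned with the row trend removed, from 0.46 ± 0.25 (SD) to -0.058. In neutrophils directions turned for MYH1, MYOZ1 and MYH7, all near zero in a spread between animals of 0.45 to 0.66. MYH1 had -0.039 with normexp and -0.14 to 0.33 with 1 animal left out, negative without animal 32. MYOZ1 had -0.40 to 0.017 with 1 animal left out, positive without animal 26. MYH7 had -0.0051 with normexp and -0.10 to 0.22 with 1 animal left out, negative without animals 32 and 34. The causes were not tested. The low signal of MYH1 and MYL1 on day 0 limits the changes of these genes in liver to bounds, which did not hold with normexp. Residual spread comes from 3 or 4 animals per tissue.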
